A study of Homo sapiens with 7 samples.

Results

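GATA6 peaks of the lowest height were examined in LS174T cells, a human cell line established from a colorectal carcinoma. They are the 789 peaks on chromosomes 1 to 22 and X with a height of 9 fragments or less, out of 7562 peaks on these chromosomes (10.4%) and 7568 in the whole list. They were chosen by the deposited pileup, which is called the height here and counts the DNA fragments stacked at a peak's summit. They were set beside the 6342 peaks of height 10 to 39, while the 431 peaks of height 40 or more served as landmarks.

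GATA6 is a transcription factor with zinc fingers that acts in tissues of endodermal origin. It binds promoters and distal enhancers that hold the GATA core sequence and supports growth and differentiation programs of the gut epithelium. In chromatin immunoprecipitation followed by sequencing (ChIP-seq), an antibody enriches DNA fragments that were cross-linked to the factor, and a peak caller reports places where fragments pile up above a local background. The lowest peaks of such a list lie nearest to the caller's limit. They can hold sites bound weakly, briefly or in few cells, and also chance pile-ups, and a height alone does not separate these.

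The study comprised 7 libraries of untreated LS174T cells in 5 groups, all cross-linked with formaldehyde for 15 min. GATA6 was precipitated in 3 of them, 1 was input DNA that no antibody had touched, and the histone marks H3K4me1, H3K4me3 and H3K27ac had 1 library each. The GATA6 peak list was analysed, and it holds a single value per peak and none per library, so the spread between the 3 GATA6 libraries and the depth of each are unknown. No group had GATA6 removed, and the labels do not say whether the 3 libraries came from separate cultures. Genes and sequences at the peaks were not analysed here, and positions are those of hg19.

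Every comparison below is a description, and no difference was tested. The height chose the peaks. The fold, the score, the local background, the width and the summit's position within the peak come from the same stack of fragments. Placement along the genome was not used in the choice, but peaks of a single list are not replicates. Intervals at 95% (Poisson for a height, Wilson for a share, order-statistic for a median) cover counting error only. Spread between libraries is not in them, because the list has no value per library. PCR copies of a molecule could not be recognised by a molecular identifier, and such copies would make the interval of a height too narrow.

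The lowest peaks were the thin end of a continuous range. The smallest height was 6, with 44 peaks, followed by 104 peaks of height 7, 263 of height 8 and 378 of height 9. Just outside the limit, 420 peaks had a height of 10, and the number per height was largest at 12, with 552. The Poisson interval ran from 2.20 to 13.1 for 6 fragments and from 4.12 to 17.1 for 9. For the 10 fragments just outside the limit it ran from 4.80 to 18.4. Counting error therefore does not separate peaks on either side of the limit. The values on both sides were close: peaks of height 9 had a median width of 195.5 bp and a median −log10 p of 8.39, and peaks of height 10 had 202.5 bp and 8.60.

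A low height went with a low local background. The background is the height divided by the authors' fold enrichment, in fragments, and its smallest value in the list, the floor, was 0.489. Median background was 0.593 in the lowest peaks (quartiles 0.489 and 0.873) and 1.05 in peaks of height 10 to 39 (quartiles 0.925 and 1.99). The floor itself held 205 of the 789 lowest peaks (26.0%, interval 23.04 to 29.2) against 260 of 6342 (4.10%, 3.64 to 4.62). A background of 1 or more occurred at 60 of the lowest peaks (7.60%) and at 3559 of the comparison peaks (56.1%).

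Height and background are tied, because a peak needs a greater height to score where the background is higher. How much of the difference this tie gives was not tested. The highest background at which a peak was listed rose with height, from 0.698 at height 6 to 0.997 at height 7, 1.22 at height 8 and 2.00 at height 9. At the floor, the number of peaks was largest at height 8, with 81 peaks, after 15 at height 6 and 43 at height 7. It then fell from 66 at height 9 to 45 at height 10 and 39 at height 11. At the floor, peaks thus thinned out on both sides of a height that lies inside the lowest class. The lower side lies at the edge of the list. A height of 5 at the floor would have a −log10 p of 4.90, above the 4.34 of some listed peaks, but no peak of height 5 was listed. Why none was listed was not tested.

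**Figure D1:**
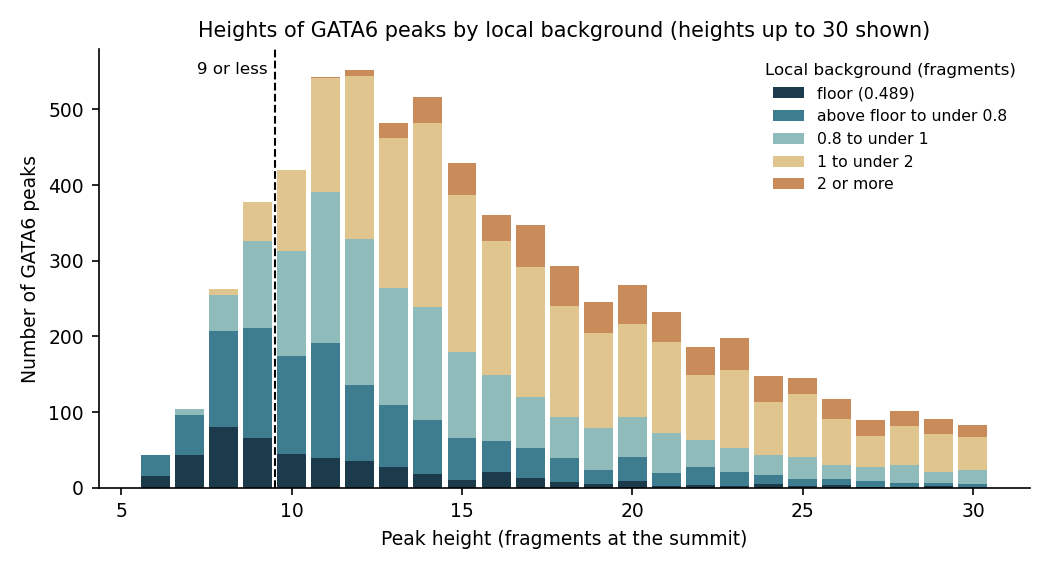
Number of GATA6 peaks (vertical axis) at each height in fragments from 6 to 30 (horizontal axis), stacked by local background class, with a dashed line after height 9. Heights 6 to 9 hold 44, 104, 263 and 378 peaks, and the floor background (darkest) takes 205 of them.

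The lowest peaks did not have a low median fold. The choice partly fixes this, since fold is the height over the background and a low peak is listed only over a low background. The median fold of the lowest peaks was 12.89, near the 13.75 of peaks of height 10 to 39, and a fold of at least 10 was reached by 587 of 789 (74.4%) and 4779 of 6342 (75.4%). The spread differed: the lowest peaks stayed between 4.51 and 18.39, where 18.39 is a height of 9 over the floor, and the comparison peaks ran from 2.86 to 79.7. Scores were lower, as the choice by height requires, with a median −log10 p of 7.49 (range 4.34 to 9.86) against 13.55. The authors' −log10 q was under 2 at 11 of the lowest peaks (1.39%) and at 41 of the comparison peaks (0.646%).

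Few distinct values stood behind these scores. Because heights were whole fragments and backgrounds moved in steps, the 789 lowest peaks shared 88 pairs of height and fold. Shared pairs were not particular to them, as the 6342 peaks of height 10 to 39 had 950 pairs. Among the lowest peaks the ties were as follows. The commonest pair, a height of 8 and a fold of 16.35, belonged to 81 peaks. Peaks with the same pair cannot be ranked by score.

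The extremes of score and background were few. The weakest peaks of height 6 lay on chromosome 1 (56899710 to 56899884) and chromosome 7 (145579413 to 145579587), each 175 bp wide at a fold of 8.59, with a −log10 p of 5.05 and a −log10 q of 1.92. The next were on chromosome 4 (78459402 to 78459576) and chromosome 16 (87800891 to 87801065), both at a fold of 9.55 and a −log10 p of 5.35. The fifth lay on chromosome 6 from 67875630 to 67875826, with a −log10 p of 5.43. Of these 5 peaks, the one on chromosome 4 had another peak near it, 441 bp away and 17 fragments high. The others had none within 20 kb.

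At the other end, 66 peaks of height 9 were tied at the largest fold of 18.39 with a −log10 p of 9.86. In genome order the first were on chromosome 1 from 41980182 to 41980396, from 101723638 to 101723845 and from 102587029 to 102587230. They were followed by chromosome 2 from 10408003 to 10408185 and from 99029529 to 99029722. All 5 were alone, the nearest other peak being 39.1 kb away at the closest and 1.13 Mb at the farthest. Of all the lowest peaks, 80.7% had no other peak within 10 kb. Not all of the 66 were alone: the peak on chromosome 16 from 10436060 to 10436234 lay 298 bp from a higher peak.

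The highest background among the lowest peaks, 2.00 fragments, was shared by 4 peaks of height 9 with a fold of 4.51 and a −log10 p of 4.34, the lowest score of the class. On chromosome 6 there were 2 of them, from 1325818 to 1326150 and from 27741721 to 27741895. The others were on chromosome 10 (89483449 to 89483623) and chromosome 17 (37617532 to 37617706). The fifth in order, on chromosome 1 from 207117155 to 207117376, had a background of 1.40 and was tied with 5 others. It lay 2002 bp from a peak of height 87.

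The lowest peaks were narrow. Their median width was 188 bp (interval 185 to 191, quartiles 175 and 218), against 254 bp (251 to 257, quartiles 208 and 316) at height 10 to 39. The smallest width in the list, 175 bp, was that of 289 lowest peaks (36.6%, interval 33.3 to 40.05) and of 394 comparison peaks (6.21%, 5.64 to 6.83). A width over 300 bp occurred at 32 lowest peaks (4.06%) and at 1888 comparison peaks (29.8%). On each of the 23 chromosomes the median width of the lowest peaks was below that of the comparison peaks, and it ran from 177 to 209 bp.

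Width grew with height without a step at the limit. Median width was 175 bp at heights 6 and 7, 188 bp at 8, 195.5 bp at 9, 202.5 bp at 10 and 209 bp at 12. Against the nearer comparison of height 10 to 19, whose median was 226 bp, the gap was 38 bp in place of 66 bp. The share of peaks at the smallest width fell from 59.1% at height 6 and 62.5% at height 7 to 36.1%, 27.2% and 20.5% at heights 8, 9 and 10.

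**Figure D2:**
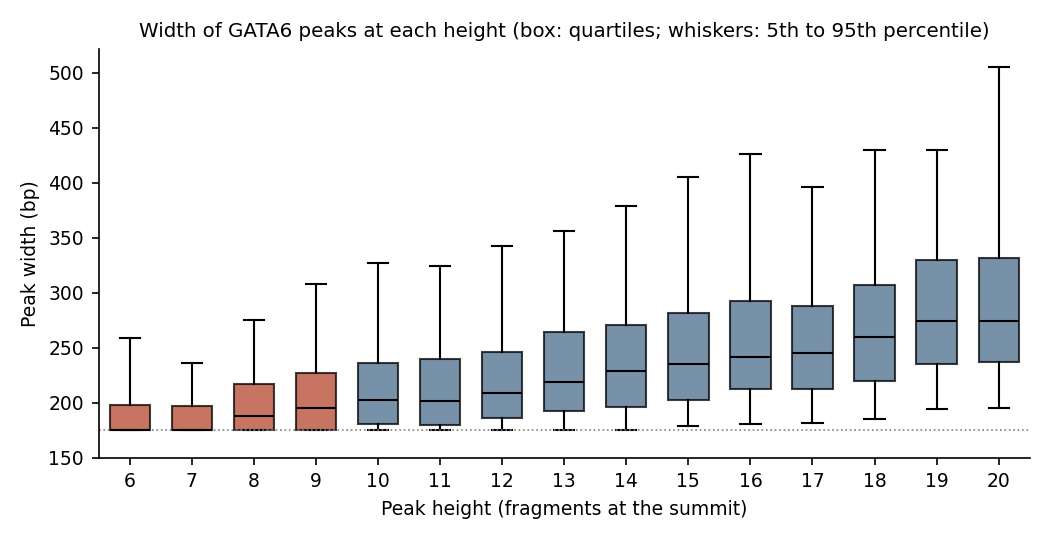
Peak width in bp (vertical axis) at each height from 6 to 20 fragments (horizontal axis), with boxes for the quartiles, a line for the median and whiskers from the 5th to the 95th percentile. The boxes of heights 6 to 9 (red) rest on the smallest width of 175 bp (dotted), and the medians climb from 175 to 195.5 bp.

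The difference in width was present in every background class that held lowest peaks. At the floor, median width was 184 bp in the 205 lowest peaks (interval 177 to 190) and 256 bp in the 260 comparison peaks (244 to 266). From a background of 1 to under 2 it was 201 bp (187 to 217) in 60 lowest peaks and 256 bp (251 to 259) in 2836. When comparison peaks were weighted to the backgrounds of the lowest peaks, 4.82% of them had the smallest width, against 36.6%. Width and height come from the same stack of fragments, so equal backgrounds do not set width apart from the height that chose the peaks.

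Summits of the lowest peaks lay off centre more often. The median position was 46.7% of the way across the peak, near the 48.9% of the comparison peaks, but the standard deviation over peaks was 19.8 percentage points against 13.1. A summit within the outer 20% on either side was found in 115 of 789 (14.6%, interval 12.3 to 17.2) and in 191 of 6342 (3.01%, 2.62 to 3.46). The difference in these shares was also present among peaks of 175 bp alone, with 59 of 289 (20.4%, 16.2 to 25.4) and 41 of 394 (10.4%, 7.76 to 13.8). Summit position and height come from the same stack of fragments, so equal widths do not set it apart from the height that chose the peaks.

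The 5 widest of the lowest peaks were exceptions to the narrow pattern. The widest, 403 bp, lay on chromosome 2 from 14563470 to 14563872 with a height of 9 and a peak of height 12 at 1233 bp. On chromosome 11, a peak of 377 bp between 59871873 and 59872249 was 8 fragments high with a neighbour of height 9 at 323 bp. A peak of 374 bp on chromosome 8 from 96330696 to 96331069 lay 983 bp from a peak of height 29. The remaining pair had no peak within 20 kb. They were a 368 bp peak of height 7 on chromosome X from 120615318 to 120615685 and a 367 bp peak of height 9 on chromosome 9 from 97063148 to 97063514.

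Chromosome X had the largest share of lowest peaks of the 23 chromosomes. There 43 of 168 peaks had a height of 9 or less (25.6%, interval 19.6 to 32.7), against 746 of 7394 on the autosomes (10.1%, 9.42 to 10.8). Chromosome 16 followed with 33 of 175 (18.9%, 13.8 to 25.3), then chromosome 19 with 23 of 160 (14.4%, 9.77 to 20.6). The smallest shares were on chromosome 15, with 16 of 247 (6.48%, 4.03 to 10.3), and chromosome 1, with 53 of 809 (6.55%, 5.04 to 8.47). The intervals of neighbouring chromosomes in this order overlapped, and those of chromosomes X and 16 did too.

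The high share on chromosome X went with a shortage of taller peaks. Per Mb of the span between first and last summit, chromosome X carried 0.285 lowest peaks, close to the 0.271 of the autosomes together and within the autosomal range of 0.183 (chromosome 22) to 0.398 (chromosome 19). It carried 0.816 peaks of height 10 to 39 per Mb, against 2.26 on the autosomes and 1.54 on the lowest single autosome, chromosome 16. Chromosome X thus ranked 11 of 23 in the density of lowest peaks and 23 of 23 in that of the comparison peaks.

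Local background also differed between chromosomes. Of the lowest peaks on chromosome X, 58.1% were at the floor, against 24.1% of those on the autosomes. Chromosome X was not alone in this, with 56.5% on chromosome 19 (13 of 23) and 60% on chromosome 22 (3 of 5). On chromosome 22, 7.14% of all peaks had a height of 9 or less. Among peaks at the floor, the share of height 9 or less was 44.6% on chromosome X (25 of 56, interval 32.4 to 57.6) and 43.6% on the autosomes (180 of 413, 38.9 to 48.4). Above the floor and under 0.8 it was 29.8% (14 of 47) and 27.4% (339 of 1239). From 0.8 to under 1 it was 9.52% (4 of 42) and 9.19% (167 of 1817). From 1 to under 2, the share was 0 of 21 on chromosome X (interval 0 to 15.5) and 60 of 3082 on the autosomes (1.95%).

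With autosomal peaks weighted to the backgrounds of chromosome X, 26.2% of them had a height of 9 or less, within the interval of the observed 25.6%. Across chromosomes, the share of lowest peaks among all peaks of the same backgrounds lay within the Wilson interval of the observed share in 23 of 23. In the ratio of the observed count to the count its backgrounds gave, chromosomes 15 and 22 were the farthest from equality. Chromosome 15 had 16 lowest peaks where its backgrounds gave 10.8 (ratio 1.48), and chromosome 22 had 5 where they gave 8.51 (0.587). In the counts themselves chromosome 12 was farther off, with 34 where its backgrounds gave 41.2. Without regard to background, the share of 10.4% over all peaks lay within the Wilson interval on all chromosomes but 1, 15, 16 and X. Peaks of the same backgrounds also include those of the chromosome itself, which draws the compared shares together. The part of the background in these shares was not tested.

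**Figure D3:**
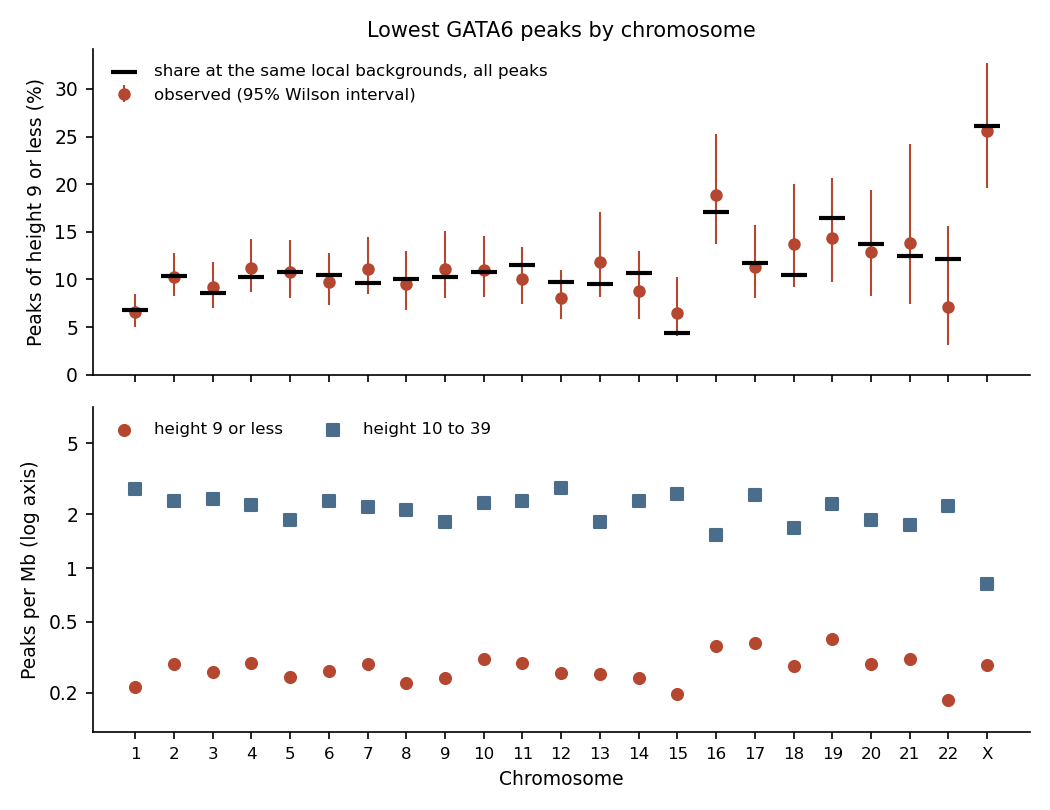
Top, percent of each chromosome's GATA6 peaks with a height of 9 or less (points, 95% Wilson interval) and the percent among all peaks at the same local backgrounds (black dashes). Bottom, peaks per Mb on a log axis for height 9 or less (circles) and height 10 to 39 (squares). Chromosome X is at 25.6% in the top panel, and in the bottom panel it is level with the autosomes for the lowest peaks and below them for the comparison peaks.

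Most of the lowest peaks were alone rather than satellites. No other summit lay within 10 kb of 637 of them (80.7%, interval 77.8 to 83.3), and 152 had a neighbour (19.3%, 16.7 to 22.2). Among peaks of height 10 to 39, 1757 of 6342 had a neighbour (27.7%, 26.6 to 28.8). The median distance to the nearest other peak was 77.1 kb (interval 61.8 to 89.5) and 41.8 kb (39.6 to 45.1). A lowest peak was the only peak in its 1 Mb bin in 95 cases (12.0%), and a comparison peak in 456 (7.19%). With the comparison peaks weighted to the backgrounds of the lowest peaks, the second share was 11.2%.

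A satellite was taken as a peak within 10 kb of a higher one, which fitted 143 of the lowest peaks (18.1%) and 14.5% of the comparison peaks. That order is partly fixed by the choice, since more of the list is higher than a low peak. With the same targets for both classes, and peaks of all backgrounds, the order turned. A peak of height 40 or more lay within 10 kb of 10 lowest peaks (1.27%, interval 0.690 to 2.32) and of 179 comparison peaks (2.82%, 2.44 to 3.26). A peak of height 20 or more lay within 10 kb of 59 (7.48%, 5.84 to 9.53) and of 770 (12.1%, 11.4 to 13.0). With the rule of any higher peak, the share was 17.6% in peaks of height 10 to 19, which is 0.550 percentage points below that of the lowest peaks. With the same rule, the share of the comparison peaks weighted to the backgrounds of the lowest peaks was 9.19%, against 18.1%.

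The share with a neighbour was smallest at the lowest height. It was 13.6% at height 6 (6 of 44, interval 6.403 to 26.7), 18.3% at height 7, 16.7% at height 8 and 21.96% at height 9 (83 of 378, 18.1 to 26.4). It was 21.2% at height 10 and 28.8% at height 12. The intervals of the 4 lowest heights overlapped.

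The gap in the share of neighbours was small among peaks of similar background, and its sign varied. At the floor, 19 of 205 lowest peaks (9.27%, interval 6.01 to 14.02) and 26 of 260 comparison peaks (10.0%, 6.92 to 14.2) had a peak within 10 kb. Above the floor and under 0.8 the shares were 20.1% and 18.0%, from 0.8 to under 1 they were 25.1% and 25.8%, and from 1 to under 2 they were 31.7% and 32.1%. In both classes the share thus rose with the background, and within a background class the intervals of low and taller peaks overlapped.

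Weighted to the backgrounds of the lowest peaks, 17.7% of the comparison peaks had a neighbour, which lies below the 19.3% of the lowest peaks and within its interval. For targets of height 40 or more the weighted share was 0.956%, against 1.27%, and for targets of height 20 or more it was 5.84%, against 7.48%. With these targets, too, the order thus turned with the weighting. Both weighted shares still lay within the intervals of the lowest peaks, 0.690 to 2.32 and 5.84 to 9.53, the second at the lower edge. By background class, the sign for targets of height 40 or more varied. The lowest peaks had the smaller share above the floor and under 0.8, and from 0.8 to under 1. They had the larger share at the floor and from 1 to under 2, where 1 and 4 of them had such a target. So few peaks do not settle the order. Why neighbours and background moved together was not tested.

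**Figure D4:**
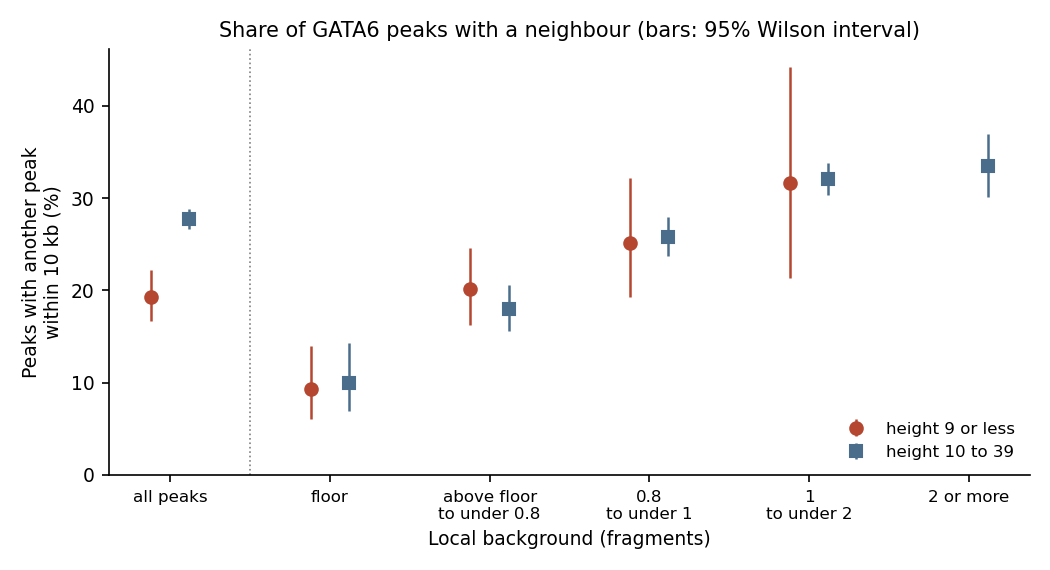
Percent of GATA6 peaks with another peak within 10 kb (vertical axis, bars for the 95% Wilson interval), for all peaks and by class of local background in fragments (horizontal axis), at height 9 or less (circles) and height 10 to 39 (squares). Over all peaks the shares are 19.3% and 27.7%, and at the floor 9.27% and 10.0%.

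By chromosome, the share with a neighbour was smaller in the lowest peaks than in the comparison peaks on 21 of 23. The exceptions were chromosome 21, with 3 of 9 lowest peaks, and chromosome X. On chromosome X, 15 of 43 lowest peaks had a neighbour (34.9%, interval 22.4 to 49.8), against 26 of 123 comparison peaks (21.1%, 14.9 to 29.2) and 18.4% of the lowest peaks on the autosomes (137 of 746, 15.8 to 21.3). On chromosome X, 3 pairs consisted of lowest peaks only, and both peaks of such a pair count here. These peaks are not independent, so the intervals are too narrow, and whether they overlap decides nothing. Whether chromosome X differs here was not tested.

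The higher peaks beside the 143 satellites had heights like those of the list. The median height of the nearest higher peak was 16 fragments (quartiles 12 and 23.5, range 7 to 87), the same as the median of all peaks of height 10 to 39. That peak was of height 10 to 39 in 129 cases, 40 or more in 9, and 9 or less in 5. Of the 138 neighbours of height 10 or more, 93.5% were thus of height 10 to 39, against 93.6% of the 6773 such peaks in the list. The higher peak was at least 3 times as high as the satellite in 36 cases and less than 2 times as high in 69.

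Satellites lay at all distances up to 10 kb, most densely close to the taller peak. The median distance between summits was 2564 bp, with 38 satellites within 1 kb, 67 from 1 to 5 kb and 38 from 5 to 10 kb. Crowding close to a taller peak was not particular to the lowest peaks. Of 918 comparison peaks with a higher peak within 10 kb, 227 had it within 1 kb and 624 within 5 kb. For the 143 satellites these numbers were 38 and 105. The taller peak was on the left of 74 satellites and on the right of 69. The smallest gap between the edges of a satellite and its taller peak was 49 bp, and 13 gaps were under 175 bp.

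The satellite with the closest summits lay on chromosome 3 from 118259249 to 118259499, with a height of 8 and a peak of height 9 at 122 bp. It was followed by one of height 7 on chromosome 5 from 82707597 to 82707796, 237 bp from a peak of height 11. Both were named after their values were seen.

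Of the satellites, 103 had a lower local background than the taller peak beside them, 28 a higher and 12 the same at 2 decimals. That order is partly fixed by the choice, since a low peak is listed only over a low background. Over the whole classes, the background was under 1 at 92.4% of the lowest peaks and at 43.9% of the comparison peaks. Against the peaks alone, the 152 with a neighbour had a higher median background (0.698, interval 0.663 to 0.785, against 0.559, 0.541 to 0.576). They also had a lower median fold (11.46 against 13.37). Their width was close to that of the peaks alone, at 192 bp (186 to 200) and 187 bp (183 to 190).

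**Figure D5:**
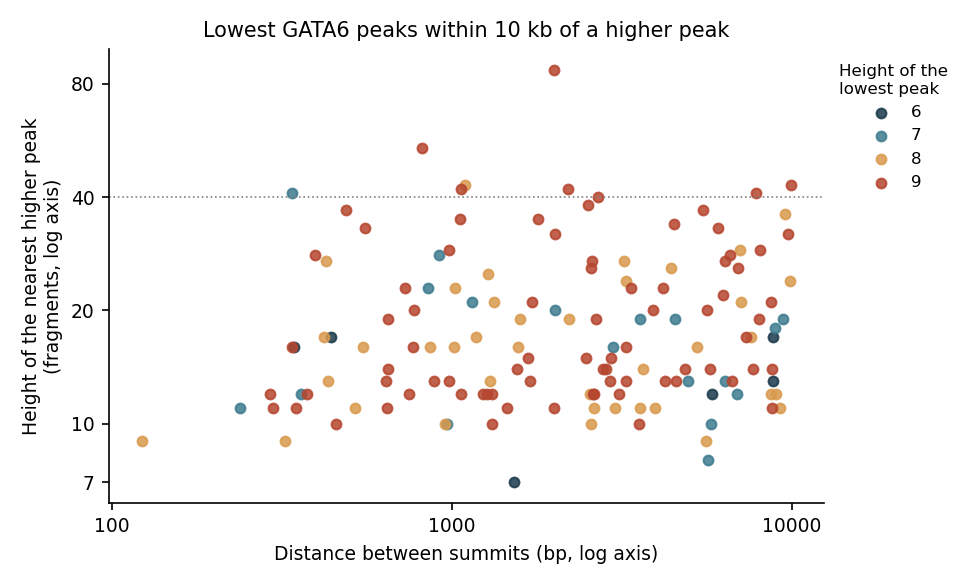
Each point is 1 of the 143 lowest GATA6 peaks with a higher peak within 10 kb, by the distance between summits in bp (horizontal log axis) and the height of the nearest higher peak in fragments (vertical log axis), coloured by its own height of 6 to 9. Most points lie between heights of 10 and 40, and 9 are at or above the dotted line at 40.

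Nearness to the tallest peaks was rare. The closest was a peak of height 7 on chromosome 11 from 110176037 to 110176211, 175 bp wide and at the floor, 339 bp from a peak of height 41. Next was a peak of height 9 on chromosome 15 from 54123363 to 54123553, 815 bp from a peak of height 54. Then came chromosome 10 from 99089711 to 99089890, 1063 bp from a height of 42, and chromosome 2 from 115283505 to 115283858, a 354 bp peak 1092 bp from a height of 43. The fifth was the chromosome 1 peak beside the height of 87 given above. The median distance from a lowest peak to a peak of height 40 or more was 2.89 Mb, against 2.04 Mb for the comparison peaks.

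Some of the lowest peaks were very isolated, but such isolation was not particular to them. The largest distance to the nearest other peak was 2986 kb among the lowest peaks and 7904 kb among the comparison peaks. A peak of height 9 on chromosome 12 from 40329767 to 40330034 had its nearest neighbour at 2.99 Mb, and that was itself a peak of height 7. A peak of height 7 on chromosome 1 from 1310833 to 1311007, the first of its chromosome, was 1.93 Mb from a peak of height 30. On chromosome 14, one from 82851495 to 82851669 was 1.92 Mb from a peak of height 57. On chromosome 11, one from 71659455 to 71659707 was 1.86 Mb from the next peak, and on chromosome X one from 56244543 to 56244717 was 1.78 Mb away. Heights of these 5 were 7 or 9, with folds from 9.02 to 14.31.

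Linked groups, in which neighbouring summits lay within 10 kb, numbered 918, and 741 of them were pairs. No group of 3 or more consisted of lowest peaks only, and 6 pairs did. These pairs were named after their values were seen, and 3 of them lay on chromosome X. On chromosome X, heights of 7 and 6 stood 1524 bp apart in the pair that starts at 16221236. Heights of 8 and 8 stood 3990 bp apart in the pair that starts at 30958221, and heights of 9 and 9 stood 8361 bp apart in the pair that starts at 41682200. The other pairs lay on chromosomes 4, 19 and 20, at 5655, 1241 and 5610 bp. Of the 35 linked groups of 4 or more peaks, 9 held a lowest peak, and 10 of the 150 peaks in these 35 groups were of height 9 or less (6.67%, against 10.4% of all peaks).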

How the data were processed

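GATA6 ChIP-seq was made from 3 LS174T libraries beside input and histone modification libraries. CASAVA 1.8, BWA 0.5.9-r16 and the build hg19 are named in the submitters' processing notes. Which peak caller and control were used, and whether libraries were pooled, is not given in the sources used here. Per the file headers, the deposited list gives each peak's pileup (a coverage signal in whole fragments, not scaled as far as the values show), its fold enrichment (a linear ratio over a local background), and −log10 p-values and q-values from the authors.

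Background was computed as height divided by fold. The deposited −log10 p matched a Poisson probability at that background within 0.0159. Values within 0.2% of the smallest were taken as the floor. Distances are between summits. Weighted shares average, over the lowest peaks, the share of comparison peaks at the same background rounded to 2 decimals, which existed for 787 of 789. Neighbour counts and weighting were tested on simulated data. Python 3.11.15, pandas 2.3.3 and scipy 1.17.1 were used.

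The members, classes and comparisons were chosen with earlier results of these data known. Individual peaks were named by rank: the 5 lowest in score at the smallest height, and the 5 extremes of fold, width, background, nearness to a peak of height 40 or more, and isolation, with ties in genome order. Runs of 3 or more linked lowest peaks would also have been named. The background classes, the weighting and the restriction to wider peaks were added after the values were seen. GATA motifs, gene starts and gene names were not analysed here, as that needs sequence and annotation of hg19. The same holds for the other 4 libraries.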

Additional observations from a re-analysis of the deposited data

Results flagged for a closer look

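A single peak of height 9 or less lay outside chromosomes 1 to 22 and X and entered no comparison. It was on an unlocalised contig assigned to chromosome 1, with a height of 8 and a width of 175 bp at the floor background. Its fold was 16.35 over that background, with a −log10 p of 8.53, the same values as the commonest pair of height and fold on the chromosomes. It is given because it shows signal in a part of the list that the comparisons left out.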

How the results depend on the processing

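Values are differences, lowest minus comparison peaks, or chromosome X minus autosomes. Of 50 alternatives, the 43 planned ones kept the direction, and 4 of 7 chosen after seeing the data turned it. Weighting to equal background turned the neighbour difference from −8.44 to 1.60 percentage points, that for targets of height 40 or more from −1.56 to 0.312, that for targets of height 20 or more from −4.66 to 1.63, and that of chromosome X from 15.5 to −0.574, while it raised the difference for any higher peak from 3.65 to 8.93 and lowered that for the only peak in a 1 Mb bin from 4.85 to 0.807. The width difference of −66 bp became −74 with the class ended at height 8, −38 against heights of 10 to 19, −72 at the floor and −50.5 among peaks above the smallest width. The background difference of −0.454 became −0.524 and −0.350 with the class ended at 8 and 10, and −0.405 against heights of 10 to 19. For any higher peak it was 0.854 with the class ended at 8 and 0.550 against heights of 10 to 19. With a distance of 5 kb the neighbour difference was −5.20, with 20 kb the difference for targets of height 40 or more was −2.51, and for targets of height 20 or more it was −4.66. The cause of these shifts was not tested. The other 32 stayed within the counting interval of the value reported. No paired analysis was possible because the list has no value per library, so no library could be left out either. The unknown depth limits every height, and at 6 to 9 fragments counting error exceeds the steps between heights.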

Other observations

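Of the 581 windows of 5 Mb that held a GATA6 peak, 408 held at least 1 of height 9 or less and 16 held 5 or more. A peak of height 10 to 39, of which the list holds more, lay in 579, and 5 or more lay in 481. Over all windows, 10.4% of the peaks were of height 9 or less. The window with most was on chromosome 16 from 85 to 90 Mb, with 7 of 26 peaks (26.9%). On chromosome X from 30 to 35 Mb, 6 of 14 peaks were of this height (42.9%), and on chromosome 8 from 130 to 135 Mb 6 of 14 were too. Chromosome 4 from 180 to 185 Mb had 5 of 13 (38.5%) and chromosome 19 from 10 to 15 Mb 5 of 14 (35.7%). The choice of windows was made from their values, and no explanation was tested.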
